A study of Mus musculus with 6 samples.

Results

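A group of 10 genes of intestinal fat absorption, Apob, Mttp, Apoa1, Apoa4, Apoc3, Dgat1, Mogat2, Cd36, Fabp1 and Fabp2, were followed in mouse ileum, the distal small intestine. They were taken by gene symbol from the array annotation. All 10 were on the array and all 10 were above background in at least 1 sample, among 12196 genes tested and 19695 genes named on the array. They were listed by name, and no measured value enters the rule, although the list was drawn up with earlier results of these data known.

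Enterocytes, the absorptive cells of the gut lining, take up fatty acids and monoacylglycerol from digested fat and rebuild them into triglyceride. The triglyceride is loaded onto apolipoprotein B in the endoplasmic reticulum to form chylomicrons, the lipoprotein particles that leave the cell for the lymph. Fat absorption is heaviest in the upper small intestine, and suckling mice live on fat-rich milk.

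The 6 samples were ileum of C57BL/6J mice in 5 groups: 1 humanized gnotobiotic preweaned sample, 1 SPF postweaned, 1 SPF preweaned, 1 germ-free postweaned and 2 germ-free preweaned samples. The humanized sample is labelled humanized gnotobiotic, that is with a controlled microbiota, and the labels do not say which microbes it held or where they came from. SPF mice were conventional animals kept free of specific pathogens, and germ-free mice lived in isolators without microbes. An age of 3 weeks is stated for gnotobiotic and some germ-free mice, and no other age is given. Each sample was read on 3 one-colour arrays, and germ-free preweaned 1 on 6, in separate sets of columns. With 1 sample in 4 of the 5 groups, only the germ-free preweaned pair measures spread between samples. The labels do not state whether these 2 samples are separate animals.

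Levels are log2 of the normalized intensity, and a level of 1 probe is not set against that of another. The SD between arrays of a sample was 0.0696 at the median over the members and samples, with a lowest of 0.00654 and a highest of 0.307. The samples fell into 2 sets by the brightest raw value of each array, near the scanner's ceiling of 65535. It was 65484 to 65492 on SPF postweaned, SPF preweaned and germ-free postweaned arrays, with 3 to 20 probes per array within 100 units of the ceiling. It was 62822 to 65474 on humanized and germ-free preweaned arrays, with 0 to 7 such probes. No label names these sets. In a comparison that crosses the sets, group and set cannot be told apart. The within-set comparisons are SPF postweaned against germ-free postweaned, SPF postweaned against SPF preweaned, and humanized against germ-free preweaned. The sets did not overlap for 7 of the 10 members, against 36.6% of all genes tested. The set with both SPF samples was higher for 4 of them (Apoa1, Dgat1, Cd36 and Fabp2) and lower for 3 (Apob, Apoc3 and Mogat2), against 18.6% and 18% of genes. Apoa1 and Fabp2 were each at the ceiling on 8 of the 9 arrays of that set and on no array of the other. Their split is therefore not independent of the brightest values by which the sets were drawn. The germ-free preweaned pair itself differed by 2-fold or more in 9.28% of genes upward and 9.92% downward (sample 1 over sample 2), and in 1 member, Dgat1, downward.

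The ileal label was checked against marker genes. All 8 enterocyte markers were above background in every sample. Of the distal ileum markers, Fabp6 (ileal bile acid binding protein), Slc10a2 (the ileal bile acid transporter) and Fgf15 were not above background in the humanized sample. Slc10a2 was also not above background in germ-free preweaned 1 and SPF preweaned. The other distal ileum markers, Slc51a, Slc51b and Gucy2c, were above background in every sample. They read 12.45, 12.99 and 12.17 in the humanized sample. Meltf, a marker of suckling enterocytes, was at 6.57 in the humanized sample, 6.48 in SPF postweaned, 14.63 in SPF preweaned, 5.91 in germ-free postweaned, and 14.62 and 6.80 in germ-free preweaned 1 and 2. It was thus high in only 2 of the 4 samples labelled preweaned. Summed hepatocyte markers were 28281 intensity units in germ-free preweaned 1 and 227 to 4565 in the other samples, mostly from Ttr, while Alb was above background in the humanized sample alone and Ahsg in none. Fewer cells of a type and less RNA per cell cannot be told apart in whole tissue.

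The proximal 5′ sequence of 3 members is shown: Apob, which had the widest spread of levels, and Apoa4 and Fabp2, the member promoters that hold CAAAGTNCA. The windows run from 250 bases before to 50 bases after the RefSeq start, 5′ to 3′ in the direction of the gene, in build GRCm38.p6, at chr12:7977427-7977726 (forward strand) for Apob, chr9:46240594-46240893 (forward strand) for Apoa4 and chr3:122894822-122895121 (forward strand) for Fabp2. Capitals mark matches to CAAAGTNCA, letters of the kind bound by the enterocyte nuclear receptor HNF4, or to TATAAA, both searched on both strands.
Apob: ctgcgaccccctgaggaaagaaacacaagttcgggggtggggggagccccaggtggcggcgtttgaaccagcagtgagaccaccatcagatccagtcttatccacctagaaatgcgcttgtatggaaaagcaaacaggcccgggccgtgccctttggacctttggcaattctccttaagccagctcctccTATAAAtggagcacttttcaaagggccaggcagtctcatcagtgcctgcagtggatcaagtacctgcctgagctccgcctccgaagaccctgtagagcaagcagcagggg
Apoa4: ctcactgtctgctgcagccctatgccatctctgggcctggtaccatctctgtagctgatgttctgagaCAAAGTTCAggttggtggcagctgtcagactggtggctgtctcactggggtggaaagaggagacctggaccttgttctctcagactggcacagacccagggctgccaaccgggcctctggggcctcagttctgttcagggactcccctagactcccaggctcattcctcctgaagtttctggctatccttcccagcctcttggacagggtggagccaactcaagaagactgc
Fabp2: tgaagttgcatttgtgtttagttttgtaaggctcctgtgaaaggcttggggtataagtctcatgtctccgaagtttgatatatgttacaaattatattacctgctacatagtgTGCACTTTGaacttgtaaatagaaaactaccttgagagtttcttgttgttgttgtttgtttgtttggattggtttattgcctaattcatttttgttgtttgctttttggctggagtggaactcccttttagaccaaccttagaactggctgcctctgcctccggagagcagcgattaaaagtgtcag

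CAAAGTNCA was found at -182 from the start of Apoa4 and, on the opposite strand, at -137 of Fabp2. It was present in 2 of the 7 member promoters in the table and in 1.41% of the 27025 mouse promoters of the same length. TATAAA was found at -60 of Apob and at -30 of Fabp1, again in 2 of 7 promoters, against 14.2% of all. The matches do not overlap each other. Mttp, Apoa1 and Cd36 held neither in this window. Both motifs were chosen with these sequences in view, and a match describes letters only. Apoc3, Dgat1 and Mogat2 are named without a sequence. Apoa1, Apoc3 and Apoa4 are neighbours on chromosome 9.

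**Figure D1:**
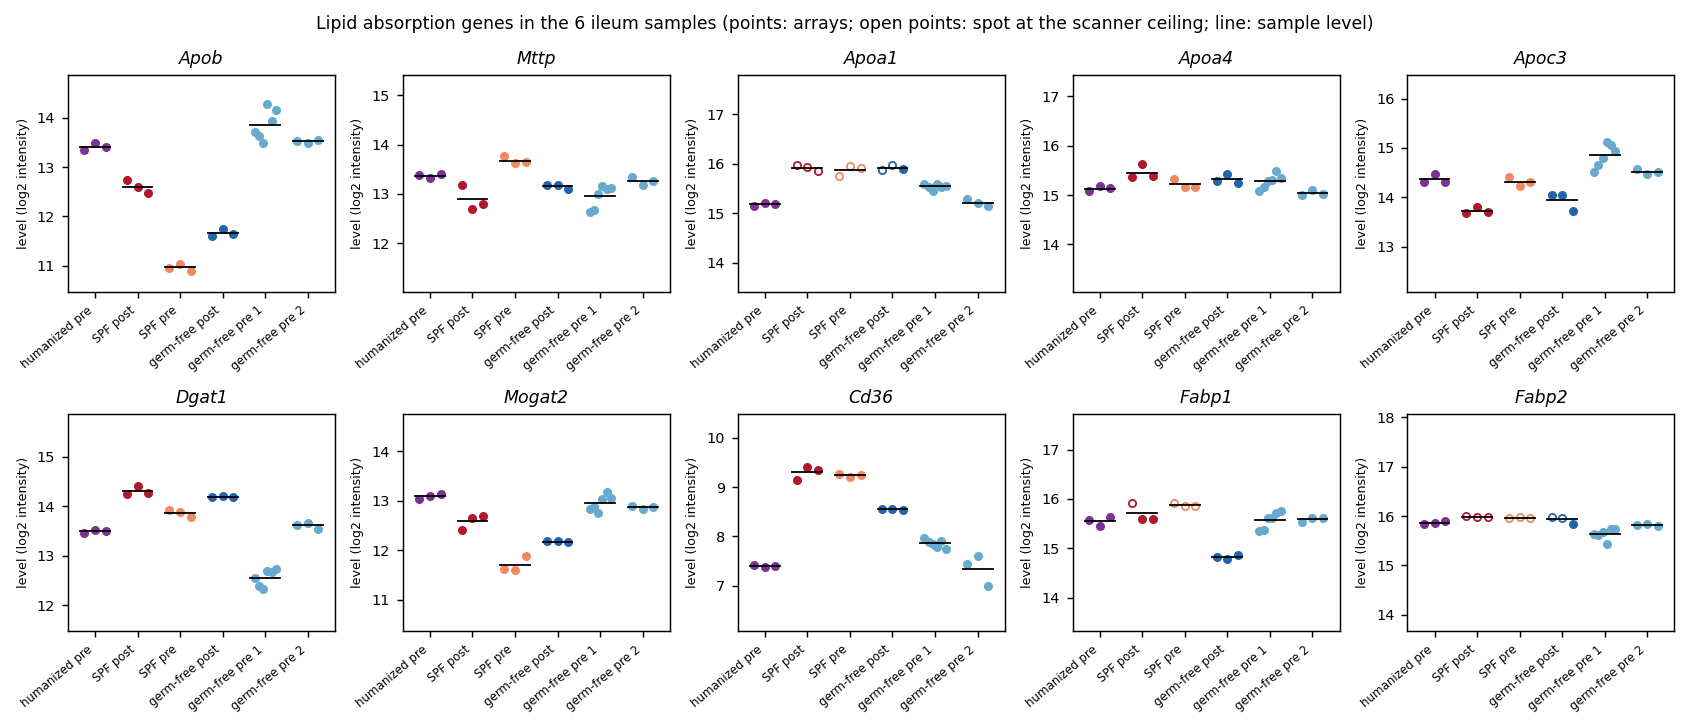
Log2 normalized intensity (y axis, the same span of log2 units in each panel) of the probe used for each of the 10 members in the 6 samples (x axis). Points are arrays, open points are spots at the scanner ceiling and black lines are sample levels. Apob runs from 10.97 in SPF preweaned to 13.86 in germ-free preweaned 1, and the open points of Apoa1, Fabp1 and Fabp2 are not fully measured.

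Apob, the structural protein of chylomicrons, differed most among the members. Its level was 13.42 in the humanized preweaned sample, 12.61 in SPF postweaned, 10.97 in SPF preweaned, 11.67 in germ-free postweaned, and 13.86 and 13.52 in germ-free preweaned 1 and 2. The raw intensities, 2084 to 15666 over the 21 arrays, lay far from the ceiling and the probe was detected on every array. The germ-free preweaned pair differed by 0.34, and the column sets of germ-free preweaned 1 lay at 13.60 and 14.11.

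After quantile normalization SPF preweaned held the least Apob of any group, 6.61-fold below the germ-free preweaned mean (log2 difference -2.72 ± 0.42, SE, limma unadjusted p = 0.00532, adjusted p = 0.489). With no normalization the lowest group was germ-free postweaned, at -2.15 from germ-free preweaned, next to -1.98 for SPF preweaned, and raw intensities were 2639 to 2977 in SPF preweaned and 2084 to 2747 in germ-free postweaned. The humanized preweaned level was 5.46-fold above SPF preweaned (2.45 ± 0.49, SE, limma adjusted p = 0.484) and within the pair gap of the germ-free preweaned mean (-0.28). These preweaned contrasts with SPF cross the array sets. Within a set, SPF postweaned was 3.11-fold above SPF preweaned (1.64 ± 0.49, SE, limma adjusted p = 0.944) and 1.92-fold above germ-free postweaned (0.94 ± 0.49, SE, limma adjusted p = 0.9998). No Apob difference passed the threshold of adjusted p under 0.05.

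Apob did not order the samples as the suckling marker Meltf did. The samples with the lowest and the highest Apob level after quantile normalization, SPF preweaned and germ-free preweaned 1, had Meltf levels of 14.63 and 14.62. Summed suckling enterocyte markers were 165151 units in SPF preweaned and 181764 in germ-free preweaned 1, against 22986 to 38548 in the other 4 samples. Markers of the upper small intestine summed to 49933 units in the humanized sample, 47742 in SPF postweaned, 66140 in SPF preweaned, 12218 in germ-free postweaned, and 66917 and 32862 in germ-free preweaned 1 and 2. Slc40a1 (15.74) gave most of the upper intestine sum in germ-free preweaned 1. Cybrd1 and Trpv6 were not above background there, nor in SPF preweaned or germ-free postweaned. The median level of the upper intestine markers was 10.17 in germ-free preweaned 1. It was 8.26 in germ-free postweaned and 11.22 to 12.35 in the remaining samples. The part of either list in the Apob values was not tested.

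Postweaned minus preweaned differences of Apob had opposite signs in the housing conditions. SPF postweaned lay above SPF preweaned by 1.64, whereas germ-free postweaned lay below germ-free preweaned by more than the pair gap (-2.02 ± 0.42, SE, limma adjusted p = 0.598, 4.06-fold). The difference of these differences was 3.66 ± 0.65 (SE, limma adjusted p = 0.761) and did not pass. Meltf was at 14.62 and 6.80 in germ-free preweaned 1 and 2, and the part of this gap in the Apob values was not tested. The SPF samples share an array set, but the germ-free samples are in different sets, and the part of the set in this difference was not tested.

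Mttp, the microsomal transfer protein that loads lipid onto apolipoprotein B, had a narrower range. Its probe read 13.37 in the humanized sample, 12.89 in SPF postweaned, 13.68 in SPF preweaned, 13.16 in germ-free postweaned, and 12.95 and 13.26 in germ-free preweaned 1 and 2. SPF preweaned was highest for Mttp after quantile normalization. With arrays scaled to their 75th percentile it stood at 13.40, below the humanized (13.47) and germ-free postweaned (13.48) samples, and SPF preweaned minus germ-free preweaned was 0.10. SPF postweaned lay below SPF preweaned by more than the pair gap of 0.31 (-0.79 ± 0.49, SE, limma adjusted p = 0.953), and SPF preweaned above germ-free preweaned (0.57 ± 0.42, SE, limma adjusted p = 0.643). Neighbouring groups in the order of Mttp levels differed by no more than the pair gap.

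A second Mttp probe read differently in 1 sample. It lay at 13.21 in the humanized sample, 13.72 in SPF postweaned, 14.34 in SPF preweaned, 13.75 in germ-free postweaned, and 5.67 and 13.28 in germ-free preweaned 1 and 2. Its raw intensity in germ-free preweaned 1 was -5 to 4, and the spot was undetected and flagged on all 6 arrays, while the probe used read 7371 to 7890 there. It was 1 of 8 probes under 50 units in germ-free preweaned 1 among 2289 that were at 1000 or more in the other 5 samples. The same count was 0 or 1 in each of the other samples. In the remaining samples the second probe minus the probe used was 0.83, 0.67 and 0.59 in SPF postweaned, SPF preweaned and germ-free postweaned, and -0.16 and 0.01 in the humanized sample and germ-free preweaned 2, so it differed by array set. With the mean of both probes Mttp in SPF preweaned would stand 2.72 above germ-free preweaned in place of 0.57, and in the humanized sample 2.004 above in place of 0.27. Within a set, both probes gave a lower Mttp level in SPF postweaned than in SPF preweaned, -0.79 by the probe used and -0.62 by the second.

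**Figure D2:**
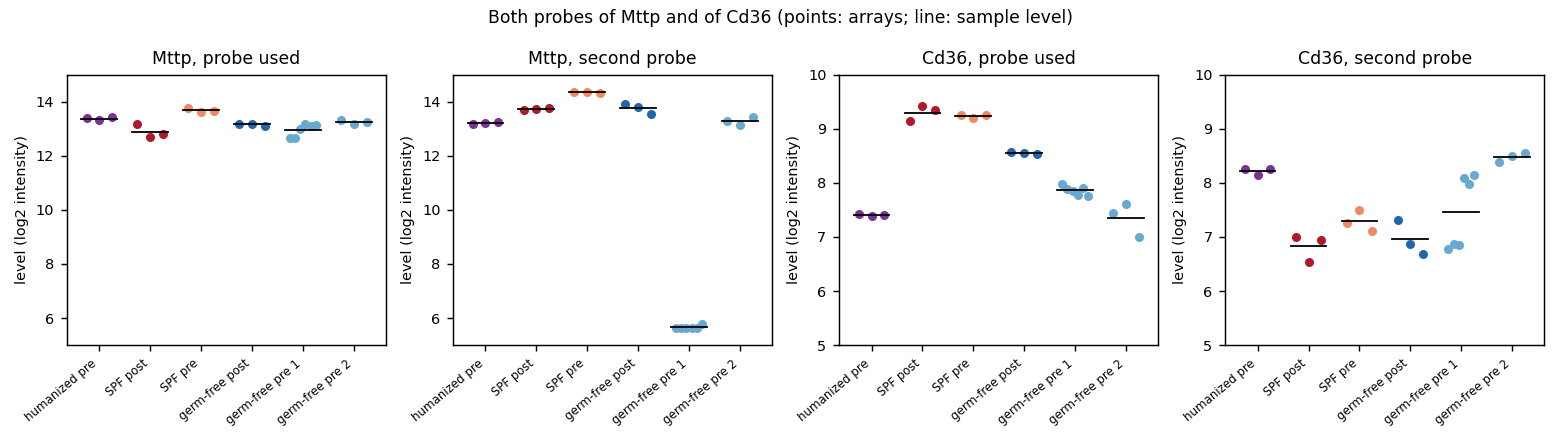
Log2 normalized intensity (y axis) of both probes of Mttp and of Cd36 in the 6 samples (x axis), with arrays as points and sample levels as lines. The second Mttp probe sits at 5.67 in germ-free preweaned 1 and at 13.21 or more elsewhere, and the second Cd36 probe is mostly near background in the SPF and germ-free postweaned samples.

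Cd36, a membrane protein that takes up long-chain fatty acids, was the dimmest member and the only one not detected on all 21 arrays. The probe used was at 7.41 in the humanized sample, 9.30 in SPF postweaned, 9.24 in SPF preweaned, 8.55 in germ-free postweaned, and 7.86 and 7.35 in germ-free preweaned 1 and 2. It was detected on 16 of 21 arrays, on none of the 3 of germ-free preweaned 2 and on 2 of 3 in the humanized and the germ-free postweaned samples. By this probe SPF preweaned exceeded the germ-free preweaned mean by 1.63 ± 0.46 (SE, limma adjusted p = 0.502). No fold is given, since germ-free preweaned 2 was not well above background, and against germ-free preweaned 1 alone the difference was 1.38. By the same probe humanized minus SPF preweaned was -1.83 ± 0.53 (SE, limma adjusted p = 0.484). No fold is given here either, since the humanized raw intensities were only 98 to 111. Within a set, SPF postweaned exceeded germ-free postweaned by 0.75 ± 0.53 (SE, limma adjusted p = 0.9998), beyond the pair gap of 0.51, and SPF postweaned and SPF preweaned were 0.06 apart.

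The second Cd36 probe did not repeat these differences. It read 8.21 in the humanized sample, 6.82 in SPF postweaned, 7.29 in SPF preweaned, 6.96 in germ-free postweaned, and 7.45 and 8.47 in germ-free preweaned 1 and 2. The column sets of germ-free preweaned 1 gave 6.83 and 8.07 for it. Its difference between SPF preweaned and germ-free preweaned was -0.67, against 1.63 for the probe used. Between SPF postweaned and germ-free postweaned it was -0.14, against 0.75. Humanized minus SPF preweaned was 0.92 by the second probe, against -1.83 by the probe used. The second probe was detected on 3 of 3 humanized arrays, 2 of 3 SPF postweaned, 1 of 3 SPF preweaned and 0 of 3 germ-free postweaned arrays, and on 3 of 6 and 3 of 3 arrays of germ-free preweaned 1 and 2. Most of its values in the SPF and germ-free postweaned samples are therefore near background, and no direction is drawn from it. Among endothelial markers, of cells that also carry Cd36, the humanized sample held all 6 above background and the other samples 2 to 4. Their summed level was 2621 units in the humanized sample against 403 to 1553. Their part in the Cd36 values was not tested. Of 6 adipocyte markers, another cell type that carries Cd36, Adipoq, Plin1, Cfd, Lep and Retn were above background in no sample, and Fabp4 was in the humanized and both germ-free preweaned samples.

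Fabp1 and Fabp2, the liver-type and intestinal fatty acid binding proteins that carry fatty acids through the cytoplasm, were among the brightest spots on the arrays. Fabp1 was at 15.56 in the humanized sample, 15.71 in SPF postweaned, 15.88 in SPF preweaned, 14.83 in germ-free postweaned, and 15.58 and 15.59 in germ-free preweaned 1 and 2. Raw Fabp1 intensities were 42321 to 45854, 49749 to 65486, 65483 to 65488, 25307 to 34742, 41022 to 47989 and 36118 to 41059 units in the same order. All 3 SPF preweaned spots and 1 of 3 SPF postweaned spots were at the ceiling. Germ-free postweaned was the low sample for Fabp1 and was read below the ceiling on all 3 arrays.

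SPF postweaned exceeded germ-free postweaned in Fabp1 within a set by 0.88 ± 0.46 (SE, limma adjusted p = 0.9998), with 1 of the 3 SPF postweaned spots at the ceiling and so no fold given, and by 0.15 when arrays were scaled to their 75th percentile. Germ-free postweaned lay below germ-free preweaned by more than the pair gap of 0.02 (-0.76 ± 0.39, SE, limma adjusted p = 0.601), and was -0.31 under that scaling. SPF preweaned lay 0.29 above germ-free preweaned after quantile normalization (limma adjusted p = 0.798), with levels of 15.88 and 15.59 (SPF preweaned and the germ-free preweaned mean). The sign turned under the 75th percentile scaling (-0.44). All 3 SPF preweaned spots were at the ceiling, so no fold is given.

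Fabp2 read 15.86 in the humanized sample, 15.99 in SPF postweaned, 15.97 in SPF preweaned, 15.93 in germ-free postweaned, and 15.64 and 15.82 in germ-free preweaned 1 and 2. Every SPF spot and 2 of 3 germ-free postweaned spots were at the ceiling, and none of the humanized or germ-free preweaned ones were. No fold is given between the SPF samples, which were at the ceiling on all arrays. Humanized minus germ-free preweaned, measured below the ceiling on both sides, was 0.13 ± 0.40 (SE, limma adjusted p = 0.9999), inside the pair gap of 0.18.

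**Figure D3:**
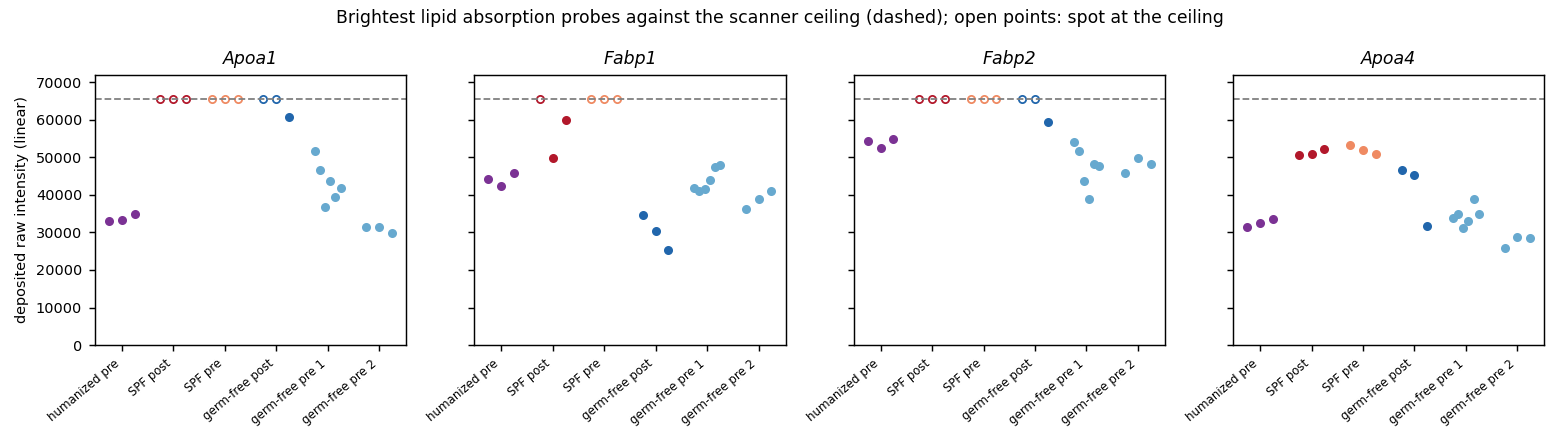
Deposited raw intensity (y axis, linear) of Apoa1, Fabp1, Fabp2 and Apoa4 on each array of the 6 samples (x axis), with the ceiling of 65535 as a dashed line and spots at the ceiling as open points. The 20 open points all belong to SPF or germ-free postweaned arrays, and Apoa4 has none.

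Mogat2, the monoacylglycerol acyltransferase that begins triglyceride rebuilding, followed the order of Apob except for the top pair of groups. Its level was 13.09 in the humanized sample, 12.58 in SPF postweaned, 11.70 in SPF preweaned, 12.17 in germ-free postweaned, and 12.95 and 12.87 in germ-free preweaned 1 and 2. Raw intensities ran from 3107 to 8866 on the 21 arrays. Neighbouring groups in this order were farther apart than the germ-free preweaned pair, whose gap was 0.08.

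SPF preweaned was 2.31-fold below germ-free preweaned for Mogat2 (-1.21 ± 0.40, SE, limma adjusted p = 0.512), and the humanized sample was 2.62-fold above SPF preweaned (1.39 ± 0.46, SE, limma adjusted p = 0.484). Within a set, SPF postweaned exceeded SPF preweaned by 0.88 ± 0.46 (SE, limma adjusted p = 0.953). SPF postweaned exceeded germ-free postweaned by 0.41 ± 0.46, a sign that turned under the 75th percentile scaling (-0.05). Germ-free postweaned lay below germ-free preweaned (-0.74 ± 0.40, SE, limma adjusted p = 0.603). The difference between the weaning differences was 1.62 ± 0.61 (SE, limma adjusted p = 0.761).

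Dgat1, the acyltransferase that adds the last fatty acid to make triglyceride, was the member on which the germ-free preweaned pair differed most. It read 13.49 in the humanized sample, 14.31 in SPF postweaned, 13.86 in SPF preweaned, 14.20 in germ-free postweaned, and 12.56 and 13.62 in germ-free preweaned 1 and 2. The pair gap of 1.06 was wider than any gap between neighbouring groups. Of the comparisons made, only germ-free postweaned against germ-free preweaned exceeded it, at 1.11 ± 0.64 (SE, limma adjusted p = 0.613), and that value was 0.58 with sample 1 of the pair left out and 1.64 without germ-free preweaned 2. Sample 1 of the pair was also the one with Meltf at 14.62 and with Sis, the sucrase of the mature brush border, at 9.04 against 15.03 in sample 2.

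Apoa1, Apoa4 and Apoc3 encode surface apolipoproteins of chylomicrons: apolipoprotein A-I, also the main protein of HDL, apolipoprotein A-IV, and apolipoprotein C-III, an inhibitor of triglyceride clearance. Apoa1 read 15.18 in the humanized sample, 15.93 in SPF postweaned, 15.88 in SPF preweaned, 15.91 in germ-free postweaned, and 15.54 and 15.21 in germ-free preweaned 1 and 2. Its raw intensity was 29826 to 51579 units in the humanized and germ-free preweaned samples and 60723 to 65489 in the others, where 8 of 9 spots were at the ceiling. SPF preweaned lay 0.50 above germ-free preweaned after quantile normalization (levels of 15.88 and 15.38, limma adjusted p = 0.690). The sign turned under the 75th percentile scaling (-0.26). All 3 SPF preweaned spots were at the ceiling, so no fold is given. The humanized sample differed from germ-free preweaned by -0.19 ± 0.42 (SE, limma adjusted p = 0.9999), inside the pair gap of 0.33.

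Apoa4 was never at the ceiling. It read 15.13 in the humanized sample, 15.45 in SPF postweaned, 15.21 in SPF preweaned, 15.32 in germ-free postweaned, and 15.28 and 15.04 in germ-free preweaned 1 and 2. After quantile normalization all neighbouring groups were within the pair gap of 0.24. Under the 75th percentile scaling the levels spread more, with 15.12 in the humanized sample, 15.37 in SPF postweaned, 14.93 in SPF preweaned, 15.84 in germ-free postweaned, and 15.19 and 15.38 in germ-free preweaned 1 and 2. SPF postweaned minus germ-free postweaned was 0.14 by quantile normalization and -0.47 by that scaling. Its difference between the preweaned SPF and germ-free groups was 0.05 ± 0.41 (SE, limma adjusted p = 0.970).

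Apoc3 read 14.36 in the humanized sample, 13.73 in SPF postweaned, 14.31 in SPF preweaned, 13.94 in germ-free postweaned, and 14.85 and 14.52 in germ-free preweaned 1 and 2. Both postweaned samples lay below all 4 preweaned ones after quantile normalization, but not under the 75th percentile scaling, where germ-free postweaned was at 14.36 and SPF preweaned at 14.01. SPF postweaned was -0.58 ± 0.49 from SPF preweaned (SE, limma adjusted p = 0.953) and germ-free postweaned -0.74 ± 0.42 from germ-free preweaned (SE, limma adjusted p = 0.613), both beyond the pair gap of 0.33. Without a further sample per group these signs are a description.

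Counts over the 10 members were set beside those over all genes. No member had an adjusted p under 0.05 in limma in any of the 7 contrasts, and the share of all genes called was 0% in each. At an unadjusted p under 0.05, limma gave 521 genes for SPF against germ-free postweaned, 1182 for SPF against germ-free preweaned, 70 for humanized against germ-free preweaned, 1241 for humanized against SPF preweaned, 627 for SPF postweaned against SPF preweaned, 927 for germ-free postweaned against germ-free preweaned and 771 for the interaction.

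For SPF postweaned against germ-free postweaned, 8 members were higher and 2 lower after quantile normalization, and only 3 were higher under the 75th percentile scaling. Among the 8, Apoa1 (0.02) and Fabp2 (0.06) had every SPF postweaned spot at the ceiling. By 2-fold or more, 0 members were higher or lower, against 9.02% of genes higher and 6.37% lower. The members' median was 0.12, and that of all genes -0.02. For SPF preweaned against germ-free preweaned, 1 member (Cd36, by the probe used) was 2-fold or more higher and 2 (Apob and Mogat2) lower. The shares of all genes were 11.5% and 11.1%. The members' median was 0.27, against -0.03 for all genes. For humanized against germ-free preweaned, 0 members reached 2-fold in either direction, against 4.16% higher and 2.34% lower among genes. All 10 lay between -0.32 and 0.41.

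For humanized against SPF preweaned, 2 members (Apob and Mogat2) were 2-fold or more higher and 1 (Cd36, by the probe used) lower. The shares of all genes were 15.3% and 14.6%, and the members' median was -0.21. For SPF postweaned against SPF preweaned, 1 member (Apob) was 2-fold or more higher and 0 lower, against 10.5% and 8.64% of genes, with a median of 0.06. For germ-free postweaned against germ-free preweaned, 1 member (Dgat1) was 2-fold or more higher and 1 (Apob) lower, against 11.6% and 12.7% of genes, with a median of 0.10. For the interaction of weaning with microbiota, 2 members (Apob and Mogat2) were 2-fold or more higher and 0 lower, against 17.5% and 16.9% of genes. Contrasts that share a sample, such as those against SPF preweaned, are not independent of each other.

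More members than these exceeded the pair gap. In SPF against germ-free preweaned, 8 of 10 did, against 54.4% of genes. In germ-free postweaned against germ-free preweaned 8 did, against 54.8%, and in SPF postweaned against SPF preweaned 6, against 50.5%. In SPF against germ-free postweaned 4 did, against 48.5%, in humanized against SPF preweaned 5, against 58.7%, and in humanized against germ-free preweaned 2, Mogat2 and Fabp1, against 27.3%. For the interaction 7 did, against 62.3%. Among the 8 members of SPF against germ-free preweaned, Apoa1, Fabp1 and Fabp2 had every SPF preweaned spot at the ceiling. These 3 changed sign under the 75th percentile scaling (-0.26, -0.44 and -0.65), and the pair gap of Fabp1 was only 0.02. Spots at the ceiling also entered the other counts, except that of humanized against germ-free preweaned.

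**Figure D4:**
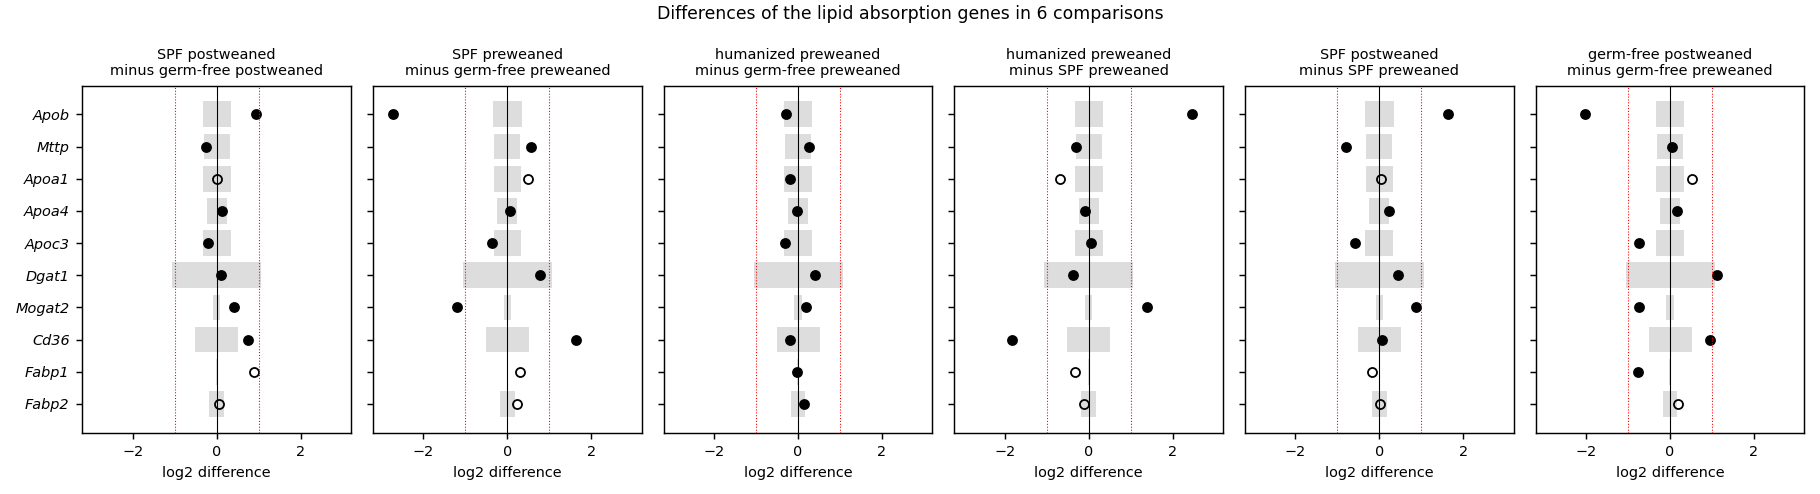
Log2 difference (x axis) of each member (y axis) in the 6 pairwise comparisons, with grey bars as the gap of the germ-free preweaned pair on either side of 0, dotted lines at 2-fold, and open circles where spots at the ceiling entered the brighter side. Apob and Mogat2 lie at -2.72 and -1.21 in SPF against germ-free preweaned, and all members lie within -0.32 and 0.41 in humanized against germ-free preweaned.

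Beyond the members, 51 of 56 other genes of lipid absorption in 6 lists were tested, and 0 were called by limma in any comparison. For humanized against SPF preweaned 10 of the 51 were 2-fold or more higher and 6 lower, against 15.3% and 14.6% of all genes. For germ-free postweaned against germ-free preweaned 5 were higher and 12 lower, against 11.6% and 12.7%. For SPF against germ-free preweaned 4 were higher and 5 lower, against 11.5% and 11.1%. Within the array sets, 7 were higher and 2 lower in SPF against germ-free postweaned, against 9.02% and 6.37%, and 7 and 7 in SPF postweaned against SPF preweaned, against 10.5% and 8.64%. In humanized against germ-free preweaned 3 were higher and 4 lower, against 4.16% and 2.34%.

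Among re-esterification and lipid droplet genes (12 tested), Lpin3, a phosphatidate phosphatase, gave the widest weaning difference in SPF ileum, 3.25. It stood at 10.42 in the humanized sample, 11.66 in SPF postweaned, 8.41 in SPF preweaned, 10.22 in germ-free postweaned, and 9.18 and 10.59 in germ-free preweaned 1 and 2, a pair gap of 1.40. Plin2, a lipid droplet coat protein, stood at 10.61 in the humanized sample, 9.80 in SPF postweaned, 12.09 in SPF preweaned, 9.40 in germ-free postweaned, and 14.19 and 10.66 in germ-free preweaned 1 and 2. Its pair gap of 3.53 exceeded every group difference. Mgll, monoacylglycerol lipase, was higher by 2.44 in the humanized sample (9.93) than in SPF preweaned (7.49).

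Dgat2, the other triglyceride-forming acyltransferase, was not picked by the rule for names and is given because it pairs with Dgat1. It stood at 13.58 in the humanized sample, 11.80 in SPF postweaned, 12.89 in SPF preweaned, 11.38 in germ-free postweaned, and 13.53 and 13.33 in germ-free preweaned 1 and 2. Germ-free postweaned minus germ-free preweaned was -2.05 and SPF postweaned minus SPF preweaned -1.08, where the same differences of Dgat1 were 1.11 and 0.45. The pair gap of Dgat2 was 0.20.

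Of the 10 assembly and export factors, the 3 with the widest differences were Surf4, a cargo receptor for export, Tm6sf2 and Apobec1, the enzyme that edits the Apob transcript. Apobec1 was at 11.24 in the humanized sample, 10.66 in SPF postweaned, 9.78 in SPF preweaned, 9.80 in germ-free postweaned, and 10.27 and 10.85 in germ-free preweaned 1 and 2. SPF preweaned and germ-free postweaned, the low samples for Apob, were also the low ones here. Germ-free preweaned 1, the highest sample for Apob, was next lowest for Apobec1 at 10.27, with a pair gap of 0.58. The humanized sample stood 1.46 above SPF preweaned. Surf4 was 1.05 higher in the humanized sample than in SPF preweaned, and Tm6sf2 1.09 higher in germ-free postweaned than in germ-free preweaned. In the within-set comparisons 0 of these 10 genes reached 2-fold.

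Other apolipoproteins (6 tested) included Apoe, a ligand for lipoprotein uptake, at 10.91 in the humanized sample, 9.25 in SPF postweaned, 8.10 in SPF preweaned, 7.90 in germ-free postweaned, and 10.56 and 10.001 in germ-free preweaned 1 and 2. It was 2.82 higher in the humanized sample than in SPF preweaned. Macrophages also make Apoe, and summed macrophage markers were 5450 units in the humanized sample, 776 in SPF postweaned, 2100 in SPF preweaned, 324 in germ-free postweaned, and 9482 and 3510 in germ-free preweaned 1 and 2. Csf1r gave most of the sum in germ-free preweaned 1 (12.85) and in SPF preweaned (10.90). Cd68 and Csf1r read higher in germ-free preweaned 1 than in the humanized sample. The other macrophage markers read lower, among them C1qa (10.32 against 11.77) and C1qb (9.03 against 10.18). The part of macrophages in the Apoe values was not tested. Apoa2, a protein of HDL, was 2.02 higher in the humanized sample than in SPF preweaned, with a pair gap of 1.77. Apoc1 was above background in 2 samples, with 7.94 in SPF preweaned and 10.45 in germ-free preweaned 1, and its pair gap was 4.01.

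Uptake and activation genes (10 tested) were led by Slc27a2, a fatty acid transport protein, at 10.15 in germ-free postweaned and 12.07 and 13.21 in germ-free preweaned 1 and 2, a difference of -2.49. Within a set it was 1.69 higher in SPF postweaned (11.84) than in germ-free postweaned. Scarb1, a receptor for HDL, was at least 2.99-fold higher in the humanized sample (8.98) than in SPF preweaned (6.79), where no array detected it. Acsl3, an acyl-CoA synthetase, differed by 2.18 between the germ-free preweaned samples.

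Of the 4 luminal digestion genes tested, Pnliprp2, a lipase, stood at 11.40 in the humanized sample, 11.15 in SPF postweaned, 8.89 in SPF preweaned, 11.02 in germ-free postweaned, and 9.17 and 11.80 in germ-free preweaned 1 and 2. It was low in the samples where Meltf was high. Pnliprp1, a related protein, was 1.69 higher in the humanized sample than in SPF preweaned, and Clps, colipase, was 1.18 higher in SPF than in germ-free postweaned ileum. The 3 pancreatic acinar markers on the array summed to 4564 units in germ-free preweaned 1 and 94.0 to 644 in the other samples. In germ-free preweaned 1 nearly all of it was Ctrb1 (12.16), while Cpa1 and Cela2a were not above background there.

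Among 9 regulators, Plagl2, a transcription factor needed for chylomicron production in mice, stood at 9.70 in the humanized sample, 9.20 in SPF postweaned, 12.16 in SPF preweaned, 9.21 in germ-free postweaned, and 11.94 and 9.55 in germ-free preweaned 1 and 2. Ppara, the fatty acid sensing nuclear receptor, was at 7.995 in SPF postweaned and 10.87 in SPF preweaned, a difference of -2.88, with a pair gap of 2.08. Gata4, a factor of the upper small intestine, was 1.28 higher in SPF preweaned than in germ-free preweaned and 1.12 higher in SPF than in germ-free postweaned. Hnf4a, an HNF4 gene, was at 12.13 in the humanized sample, 13.31 in SPF postweaned, 12.61 in SPF preweaned, 12.94 in germ-free postweaned, and 12.94 and 12.20 in germ-free preweaned 1 and 2, and reached 2-fold in no comparison.

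**Figure D5:**
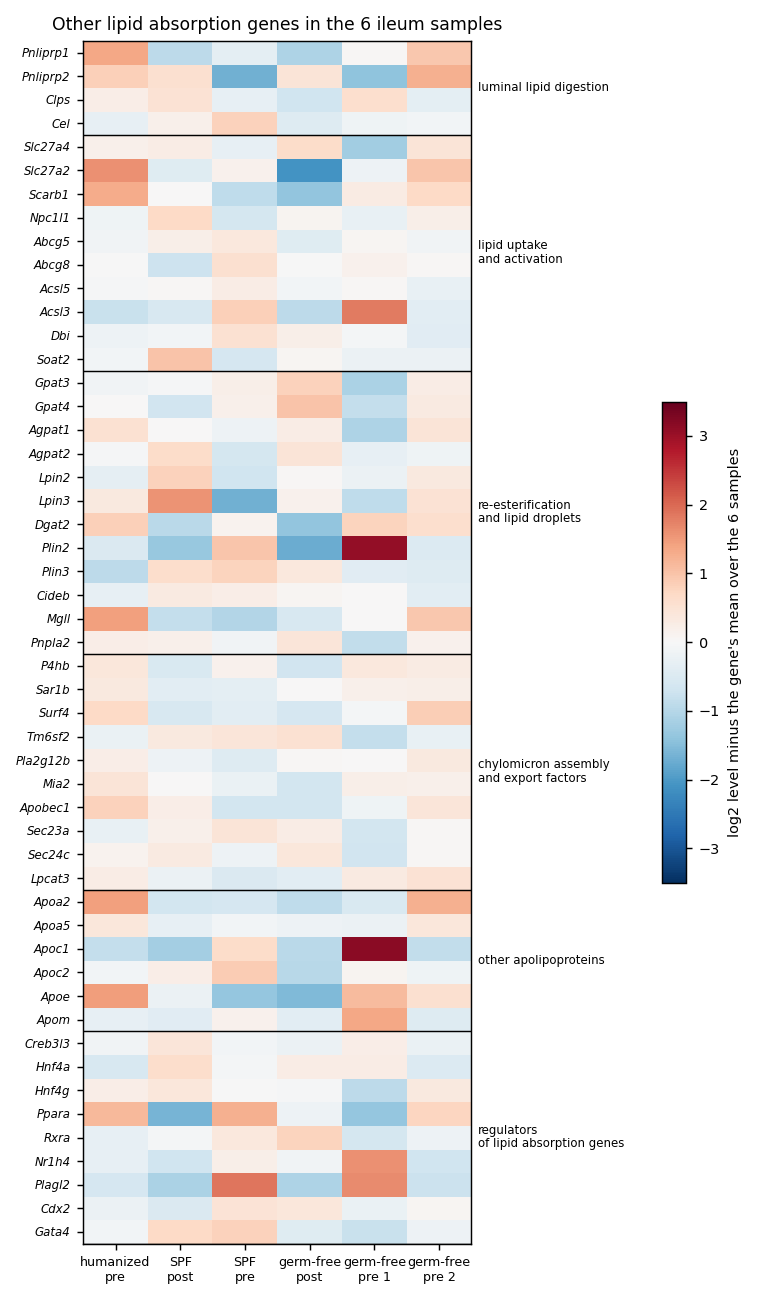
Log2 level minus the mean of the gene over the 6 samples (colour, red above and blue below the mean) for the 51 other lipid absorption genes tested (rows, by list) in the 6 samples (columns). Plin2, Apoc1 and Plagl2 are red in germ-free preweaned 1, and Lpin3 is blue in SPF preweaned.

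The mean profile of the 9 members above background in all 6 samples was most like that of Dync1li1 (Pearson r = 0.990 over 6 samples), Slc20a1 (0.987), Etv3 (0.987), Snrnp70 (0.986) and Ppp4r1 (0.983), among genes outside the lists with a range of at least 1. The 6 points share their libraries and array sets, and the profile itself spans only -0.17 in germ-free postweaned to 0.09 in the humanized sample, so the likeness is a description.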

How the data were processed

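Ileal RNA of 6 mouse samples was hybridized to Phalanx Mouse OneArray microarrays with Cy5 as the only dye, per the labels' protocols. Per the file headers, the deposited files give a raw intensity, a detection p-value and a flag per probe and array. Some intensities were below 0, so background had been subtracted before deposit, and the method, image software and probe coordinates are unknown here. A normexp correction was therefore not run.

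Values were quantile-normalized over 21 arrays, set to at least 0, given an offset of 50, logged (log2) and averaged by sample. Above background means detection p-values under 0.05 on most arrays of a sample, and a probe was tested when this held in at least 1 sample. The brightest probe stands for a gene. A spot within 100 of 65535 counted as at the ceiling. Probe symbols (22553 with 1 symbol, 237 with several, 3633 with none) were updated through the RefSeq table of GRCm38.p6: 19966 were current, 2144 older, and 443 stayed as in the file. The array number limits the precision.

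Group means were fitted to all 6 samples with limma 3.58.1 in R 4.3.3, with 2-sided tests and Benjamini-Hochberg adjustment over 12196 genes. The fit, checked on simulated data, has 1 residual degree of freedom, the germ-free preweaned pair, and assumes that lone samples vary like it. P-values cover only sample-to-sample spread, possibly technical. The members, lists and motifs were chosen with earlier results of these data known. All members were named. From each other list the 3 genes with the widest difference of 2-fold or more were named, and the 5 genes most like the members by Pearson correlation. Alternatives were the scaling, offset, filter, probe choice, saturated probes, columns used, the deposited value table and leaving out a germ-free preweaned sample. That value table (linear, not centred, column medians of 33.3 to 97.9) equals the mean of the arrays to a median ratio of 0.997 to 1.003.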

Additional observations from a re-analysis of the deposited data

Results flagged for a closer look

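Apob differed in sign between housing conditions from preweaned to postweaned samples. SPF postweaned minus SPF preweaned was 1.64, while germ-free postweaned minus germ-free preweaned 1 and 2 was -2.19 and -1.85. Apob also differed in sign between ages. SPF postweaned minus germ-free postweaned was 0.94, and SPF preweaned minus germ-free preweaned 1 and 2 was -2.89 and -2.56. The interaction was not past the threshold (limma adjusted p = 0.761).

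Mogat2 had the signs of Apob after quantile normalization. Its weaning difference was 0.88 in SPF and -0.78 and -0.69 in germ-free ileum against germ-free preweaned 1 and 2. SPF minus germ-free was 0.41 after weaning (-0.05 under the 75th percentile scaling) and -1.25 and -1.16 before it (limma adjusted p of the interaction = 0.761).

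Mttp had the opposite order of signs after quantile normalization, with SPF minus germ-free at -0.27 after weaning and 0.73 and 0.42 before it (limma adjusted p of the interaction = 0.797). The -0.27 lay inside the pair gap of 0.31. It was -0.02 with no normalization, -0.03 by the second probe and -0.82 under the 75th percentile scaling. Under that scaling SPF preweaned (13.40) lay above germ-free preweaned 1 (13.02) but below germ-free preweaned 2 (13.59). For all 3 genes the germ-free preweaned samples lie in the other array set than the samples they were set against, and the part of the set was not tested.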

How the results depend on the processing

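The members' medians moved most with the scaling. With arrays scaled to their 75th percentile they were -0.48 (SPF against germ-free postweaned), -0.40 (SPF against germ-free preweaned), -0.15 (humanized against germ-free preweaned), 0.24 (humanized against SPF preweaned), 0.45 (SPF postweaned against SPF preweaned) and 0.36 (germ-free postweaned against germ-free preweaned). With no normalization, 4 medians moved, to 0.32, 0.71, 0.0886 and -0.62 in the first 4 of these comparisons. The medians of all genes in those 4 were then 0.46, 0.78, 0.12 and -0.65. Under the 75th percentile scaling the medians of all genes were -0.157, -0.128, -0.0459, 0.0634, -0.0445 and 0.0707, in the order above. Without probes saturated on any array, 3 medians of the members moved. They were 0.0534 for SPF against germ-free preweaned, -0.0821 for humanized against SPF preweaned and 0.24 for SPF postweaned against SPF preweaned. That setting drops Apoa1, Fabp1 and Fabp2, and the 42 differences of the 7 members left stayed the same, so only the membership of the median changed. The cause of the moves with the scaling and with no normalization was not tested. Of 60 member differences, 16 changed sign under the 75th percentile scaling and 7 with no normalization. Apob and Cd36 kept their signs in the 75th percentile scaling.

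No paired analysis was possible because the labels give no replicate numbers and 4 of the 5 groups hold 1 sample. Leaving out a germ-free preweaned sample leaves no residual degree of freedom, so it gives values with no test. With the sets of columns of germ-free preweaned 1 as separate samples, a setting added after seeing the data that treats arrays of 1 sample as independent, limma called 56 genes in SPF against germ-free preweaned, 23 in humanized against SPF preweaned and 44 in germ-free postweaned against germ-free preweaned, with 0 in the other comparisons. No member was among them, and the smallest adjusted p of a member was 0.110 (Apob, SPF against germ-free preweaned). The offset moved no member difference beyond the spread between arrays. The filters on dim probes and the moderation of the variance could not move one. The filters act after normalization and kept the same member probes, except that the one asking for all 6 samples dropped Cd36. The moderation changes only the tests. The ceiling limits Apoa1, Fabp1 and Fabp2, and detection limits Cd36.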
